A study of Mus musculus with 6 samples.

Results

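Genes of the proteasome were described in embryonic mouse cortex electroporated for an edit of Ccnd2. They were taken as every row of the authors' deposited table whose symbol is Psma, Psmb, Psmc, Psmd, Psme, Psmf or Psmg followed by a number and whose mean is above 0. The rule gave 48 of the 18446 genes with a mean above 0, among 25239 symbols. By role these are 7 genes of the alpha ring and 7 of the constitutive beta ring of the 20S core, 3 immunoproteasome genes (Psmb8, Psmb9 and Psmb10) and 2 tissue-restricted 20S genes (Psma8 and Psmb11). A further 9 encode the base and 8 the lid of the 19S regulatory particle, 7 encode assembly chaperones, and 5 encode other activators or an inhibitor. The symbol rule leaves out Adrm1 and Sem1, which encode further 19S subunits, and their values are given with the partner genes.

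Polyadenylated RNA was measured in 6 libraries, 3 in each of 2 groups, from electroporated cortex of C57BL/6J mouse embryos whose genotype is labelled Wildtype in both groups. Electroporation was done in utero at E13.5, and tissue was taken at E15.5. One group, labelled MPPH (Thr280Ala), received a CRISPR edit meant to insert the Thr280Ala variant of Ccnd2, and the other, labelled GFP_only, received GFP. No group was edited without the variant, so the variant and the editing cannot be told apart, and the fraction of edited cells in a library was not measured in these data. Whether each library is a separate embryo is not labelled, and p-values here reflect only the spread between these 6 libraries. In bulk tissue fewer cells of a type and less RNA per cell cannot be told apart. The authors' deposited table does not state which group is the numerator, so genes with a fold change above 0 are called higher on the positive side and those below 0 higher on the negative side. Which side holds the variant is not known.

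The 26S proteasome is the main machine of regulated protein breakdown in the cytosol and nucleus. Its 20S core is a stack of outer alpha rings, which gate entry, and inner beta rings, in which Psmb5, Psmb6 and Psmb7 encode the chymotrypsin-like, caspase-like and trypsin-like active subunits. The 19S base holds a ring of ATPases that unfold substrates, and the lid removes ubiquitin chains. In cells exposed to interferon gamma, and constitutively in many immune cells, Psmb8, Psmb9 and Psmb10 replace the constitutive active subunits, which changes the peptides made for MHC class I. The transcription factor Nrf1 (encoded by Nfe2l1) raises proteasome gene expression when proteasome activity falls. Cyclin D2, the product of the edited gene, is itself a proteasome substrate: phosphorylation at Thr280 marks it for ubiquitination, and MPPH variants at that residue make the protein resistant to breakdown. RNA levels of the subunits measure neither proteasome assembly nor its activity.

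The promoters of the immunoproteasome genes and of Psmb5, a constitutive subunit, are shown. The immunoproteasome genes were scarcer than the constitutive subunits, and Psmb8 and Psmb9 varied more between libraries, though none differed detectably between the sides. RefSeq promoters of GRCm38.p6, from 250 bases before to 50 after the annotated start, were matched for 40 of the 48 genes, and each is printed here 5′ to 3′ on the gene's own strand. Capitals mark a match to a searched motif on either strand: TGACNNNGC, the core of the antioxidant response element bound by Nrf1 and Nrf2, in Psmb5, TTCNNNGAA, the gamma-activated site, in Psmb8, and CCAAT (read on the opposite strand) in Psmb9. Psmb5 is at chr14:54617946-54618245 on the minus strand, Psmb8 at chr17:34197945-34198244 on the plus strand, Psmb9 at chr17:34187281-34187580 on the minus strand and Psmb10 at chr8:105938343-105938642 on the minus strand.
Psmb5: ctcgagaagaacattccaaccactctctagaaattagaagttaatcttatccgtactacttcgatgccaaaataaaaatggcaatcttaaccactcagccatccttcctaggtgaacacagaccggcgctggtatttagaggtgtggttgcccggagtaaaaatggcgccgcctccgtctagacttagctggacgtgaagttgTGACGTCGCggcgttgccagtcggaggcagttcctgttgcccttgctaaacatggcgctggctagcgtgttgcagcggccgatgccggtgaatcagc
Psmb8: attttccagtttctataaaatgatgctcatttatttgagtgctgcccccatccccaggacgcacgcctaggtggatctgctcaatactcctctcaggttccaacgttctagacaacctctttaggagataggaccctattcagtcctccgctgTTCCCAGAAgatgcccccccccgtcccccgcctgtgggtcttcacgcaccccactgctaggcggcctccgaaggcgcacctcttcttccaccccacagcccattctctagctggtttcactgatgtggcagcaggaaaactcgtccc
Psmb9: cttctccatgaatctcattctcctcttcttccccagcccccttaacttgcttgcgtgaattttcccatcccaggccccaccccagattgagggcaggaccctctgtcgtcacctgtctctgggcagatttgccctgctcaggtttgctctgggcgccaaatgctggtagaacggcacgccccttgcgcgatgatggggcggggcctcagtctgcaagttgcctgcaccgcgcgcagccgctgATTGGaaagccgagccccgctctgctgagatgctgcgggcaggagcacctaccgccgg
Psmb10: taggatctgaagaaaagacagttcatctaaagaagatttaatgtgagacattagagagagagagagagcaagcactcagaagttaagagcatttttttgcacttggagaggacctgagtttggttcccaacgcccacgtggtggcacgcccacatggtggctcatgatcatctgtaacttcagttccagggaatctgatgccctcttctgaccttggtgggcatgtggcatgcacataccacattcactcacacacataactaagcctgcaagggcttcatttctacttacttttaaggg

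In these windows Psmb8 was the only immunoproteasome gene with the gamma-activated site motif, and Psmb10 had none of the 4 motifs searched. The fourth was the core of the interferon-stimulated response element, GAAA followed after 2 bases by another GAAA. It was found in 5 of the 40 matched proteasome genes (Psmb3, Psmd4, Psmd9, Psme1 and Psmg4), and in none of the 3 immunoproteasome windows. That is 12.5% against 3.99% of all 27025 genes with promoters of that length, a gene being counted if any of its promoters held the motif. The gamma-activated site motif was found in 7.5% against 9.55%, the antioxidant response core in 15% against 14.0%, and CCAAT in 35.0% against 41.1%. The antioxidant response core was found in 2 of the 4 matched constitutive beta-ring genes, Psmb5 and Psmb6, and CCAAT in 5 of the 7 alpha-ring genes. A match is a run of letters in the window, not evidence of binding. The windows of Psmb8 and Psmb9 lie wholly inside the spans of these genes in GENCODE M21. Bases upstream of their GENCODE starts were therefore not searched.

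Whole reads per library were recovered for all 48 genes from the deposited means and fold changes, and are used for every value per library. The sign of the fold change of genes with a single read puts 3 libraries on each side. Within a side they carry the numbers 1 to 3 in order of falling size factor, which are not the replicate numbers of the labels. The size factors were 1.11, 1.02 and 0.904 for the positive libraries and 1.11, 1.04 and 0.850 for the negative ones, while total reads are unknown. Normalised reads are reads divided by the size factor, and the mean over the 6 libraries is the base mean of the authors' deposited table. All 10 markers listed for cortical neurons and progenitors, the labelled tissue, were measured, with means of 691 to 20121. Libraries 1 and 2 of the positive side stood apart from the others in non-neural genes: summed normalised reads of 7 meningeal and fibroblast genes were 1432, 2024 and 414 in the positive libraries and 498, 353 and 546 in the negative ones. These are the genes with recovered reads among the 10 listed, which leaves out Col1a1, Col1a2 and Col3a1. The most abundant gene in the sum was Pdgfra, with a mean of 348. The sides also differed in genes of the ventral forebrain: summed normalised reads of 9 of them were 4459, 4475 and 2900 against 8542, 4796 and 8093. All 10 listed had negative log2 fold changes in the authors' deposited table, and Dlx5 and Dlx6 were called. The part of these differences in the reads of the proteasome genes was not tested.

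The constitutive proteasome did not differ detectably between the sides. None of the 48 genes was called at an adjusted p under 0.05 by the authors' DESeq2 Wald test, where 25 of 18446 genes were called (0.136%). None had an unadjusted p under 0.05 either, against 730 genes or 3.96% of those tested, and the smallest was 0.12. Of the 31 subunit genes of the alpha ring, constitutive beta ring, base and lid, 13 had positive and 18 negative log2 fold changes in the authors' deposited table, from -0.095 to 0.054 with a median of -0.0066. All 31 had a 95% interval that lay within 0.25 of 0 on the log2 scale, a 1.19-fold difference. No value here separates edited from unedited cells, so a difference within a small share of cells could lie inside these bounds.

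Small fold changes were the rule for abundant genes in these libraries. Of the 36 proteasome genes with a mean of at least 1000, 35 (97.2%) had an absolute log2 fold change of 0.1 or less in the authors' deposited table, against 81.1% of the 5099 genes at such means. Their median absolute log2 fold change was 0.030 against 0.048 for those 5099, and their median standard error 0.075 against 0.089. Among the 31 core, base and lid genes, 27 had a standard error below the median of the 200 genes nearest in mean. The median log2 fold change was -0.0025 over all 48 genes and -0.0050 over the 44 with a mean of at least 50, against -0.0089 over all 12019 genes at that level. Positive signs made up 23 of the 48 against 48.8% of all genes tested, and 20 of the 44 against 46.2% of the 12019 genes.

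**Figure D1:**
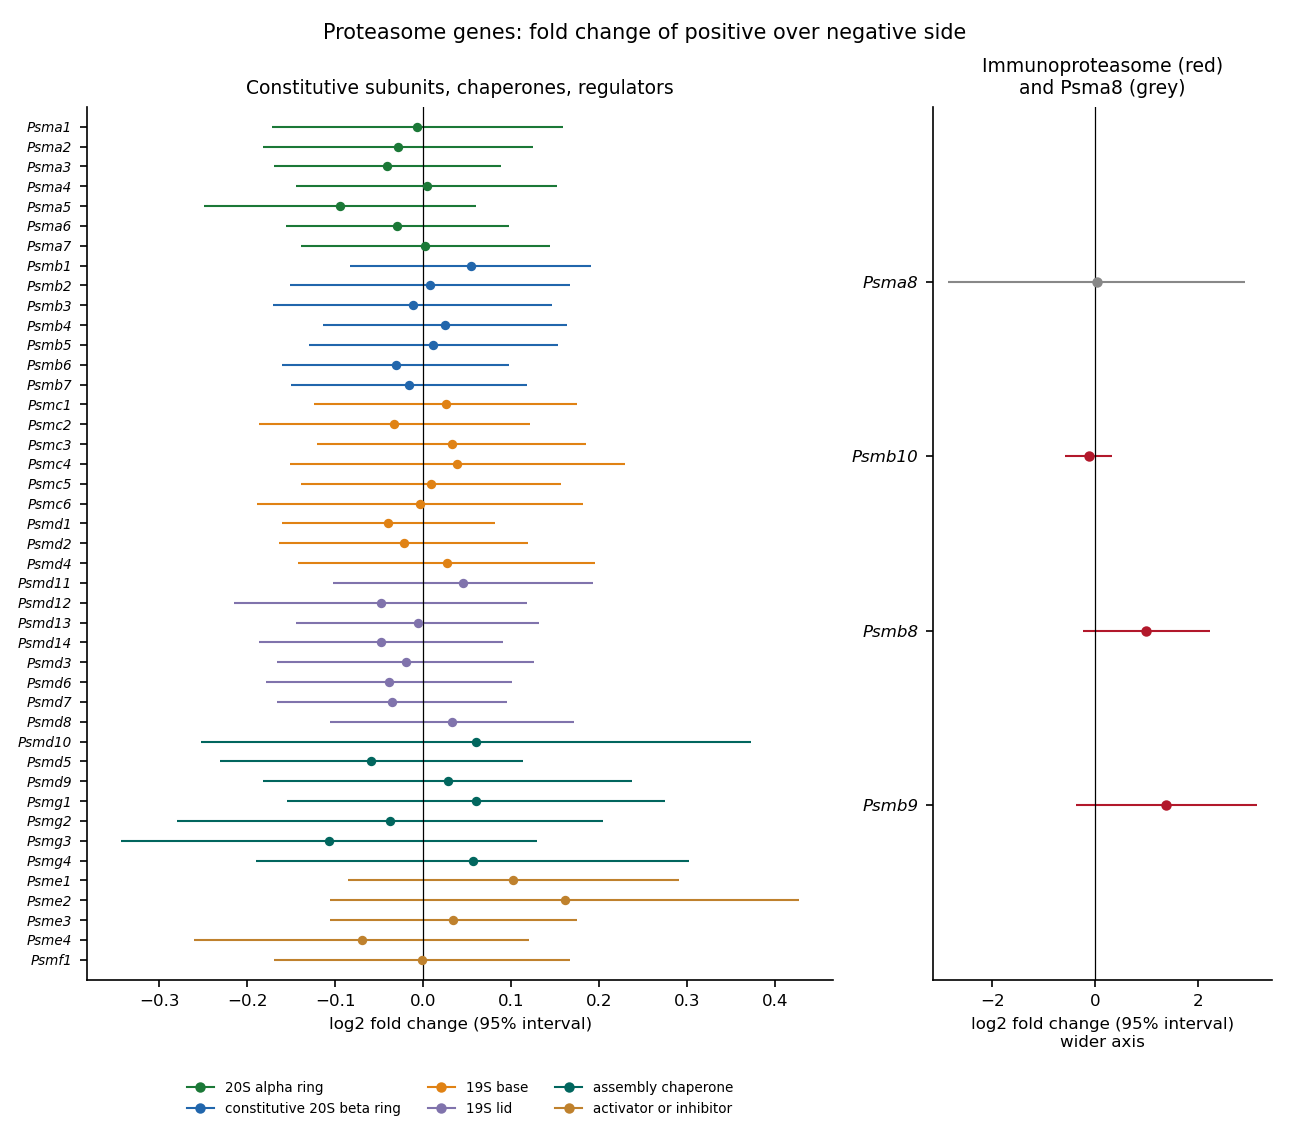
Log2 fold change of each gene, positive over negative side, with its 95% interval in the authors' deposited table, coloured by role, with the immunoproteasome genes and Psma8 on a wider axis at right and Psmb11 left out because it had 2 reads in all. The 31 core, base and lid genes lie between -0.095 and 0.054, while Psmb8 and Psmb9 lie at 0.99 and 1.39 with intervals that span 0.

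No gene of the alpha ring, whose products form the gate of the core, passed the test. Log2 fold changes in the authors' deposited table were negative for 5 of 7, with a median of -0.029, and ran from -0.095 (Psma5) to 0.0040 (Psma4). Psma5, the alpha5 subunit, had 2024, 2024 and 2202 normalised reads in the positive libraries and 2254, 2292 and 2123 in the negative ones. The sides overlapped only because positive library 3 lay above negative library 3. The log2 difference of Psma5, -0.095 ± 0.079 (fold change ± standard error, authors' deposited table), did not pass the test (DESeq2 adjusted p = 1.00). Psma3, the alpha7 subunit, had 2354, 2302 and 2322 normalised reads against 2374, 2398 and 2407. It was the only one of the 31 genes whose sides did not overlap, yet the highest of its 6 libraries was 1.05 times the lowest. The share of all genes with such a separation is not known, because reads were recovered for the listed genes only. The coefficient of variation of Psma3 over the 6 libraries was 1.77%, against 2.05% from counting alone, and its log2 fold change in the authors' deposited table was -0.041 ± 0.066. Both genes have near-identical pseudogenes (Gm8394 at 98.6% for Psma5 and Gm13835 at 100% for Psma3), so their reads are uncertain. The other alpha genes each overlapped between the sides, with libraries at 92.2% to 107% of the gene's mean.

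In the constitutive beta ring 4 of 7 genes were positive, with a median log2 fold change by the authors' deposited table of 0.0077 and a range from -0.031 (Psmb6) to 0.054 (Psmb1). The 3 genes of the active subunits were among the steadiest. Psmb5, the chymotrypsin-like subunit, had 2663, 2455 and 2668 normalised reads in the positive libraries and 2541, 2591 and 2593 in the negative ones. Psmb6, the caspase-like subunit, had 3788, 3546 and 3668 against 3800, 3784 and 3659. Psmb7, the trypsin-like subunit, had 4286, 3979 and 4367 against 4292, 4281 and 4198. In each of these genes positive library 2 was the lowest of the 6, and the negative libraries lay within the range of the positive ones except for Psmb6, where negative library 1 was the highest. Log2 fold changes in the authors' deposited table were 0.011 ± 0.072 for Psmb5, -0.031 ± 0.066 for Psmb6 and -0.016 ± 0.068 for Psmb7. Psmb5 is uncertain as a single gene, since Mir686 overlaps 12.1% of its exon bases on the same strand and the pseudogene Gm3375 is 98.9% identical to it over 796 bases. Reads of Psmb7 could be shared with Nek6, which overlaps 11.8% of its exon bases on the opposite strand, since the sources used here do not state whether the counting used strand.

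In the 19S base 5 of 9 genes were positive, with a median log2 fold change by the authors' deposited table of 0.0085 and a range from -0.040 (Psmd1) to 0.039 (Psmc4). Psmd2, a scaffold subunit that docks ubiquitin-like domains, was the most abundant of the 48 by mean, with 9212, 8909 and 10095 normalised reads in the positive libraries and 9819, 9484 and 9348 in the negative ones. Its libraries overlapped fully, and its log2 fold change in the authors' deposited table was -0.022 ± 0.072. Psmc4, an ATPase of the ring, had 3407, 2962 and 3713 normalised reads against 3373, 3296 and 3143. It was the most variable of the 31 genes, with a coefficient of variation of 7.68%, and both its extremes were positive libraries. The 6 ATPase genes Psmc1 to Psmc6 had a median log2 fold change by the authors' deposited table of 0.017, 4 of them positive. Psmd4, which encodes a ubiquitin receptor, had 0.027 ± 0.086, and the scaffold gene Psmd1 had the smallest standard error of the 48, 0.062, in the authors' deposited table.

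In the 19S lid 6 of 8 genes were negative, with a median log2 fold change by the authors' deposited table of -0.028 and a range from -0.049 (Psmd12) to 0.045 (Psmd11). Psmd14, the deubiquitinating enzyme of the lid, had 2810, 2829 and 2879 normalised reads in the positive libraries and 2933, 3069 and 2801 in the negative ones. The sides overlapped through negative library 3, which was the lowest of the 6, and the log2 fold change in the authors' deposited table was -0.048 ± 0.071. Psmd7, the partner of Psmd14 in the lid, had 2973, 2943 and 3112 against 3015, 3141 and 3094. Its libraries also overlapped, and the authors' deposited table gives a log2 fold change of -0.035 ± 0.067. Psmd11, a lid subunit that contacts the core, is uncertain as a single gene, because the processed transcript A730017L22Rik is 97.9% identical to it over 1501 bases and had a mean of 187 of its own.

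**Figure D2:**
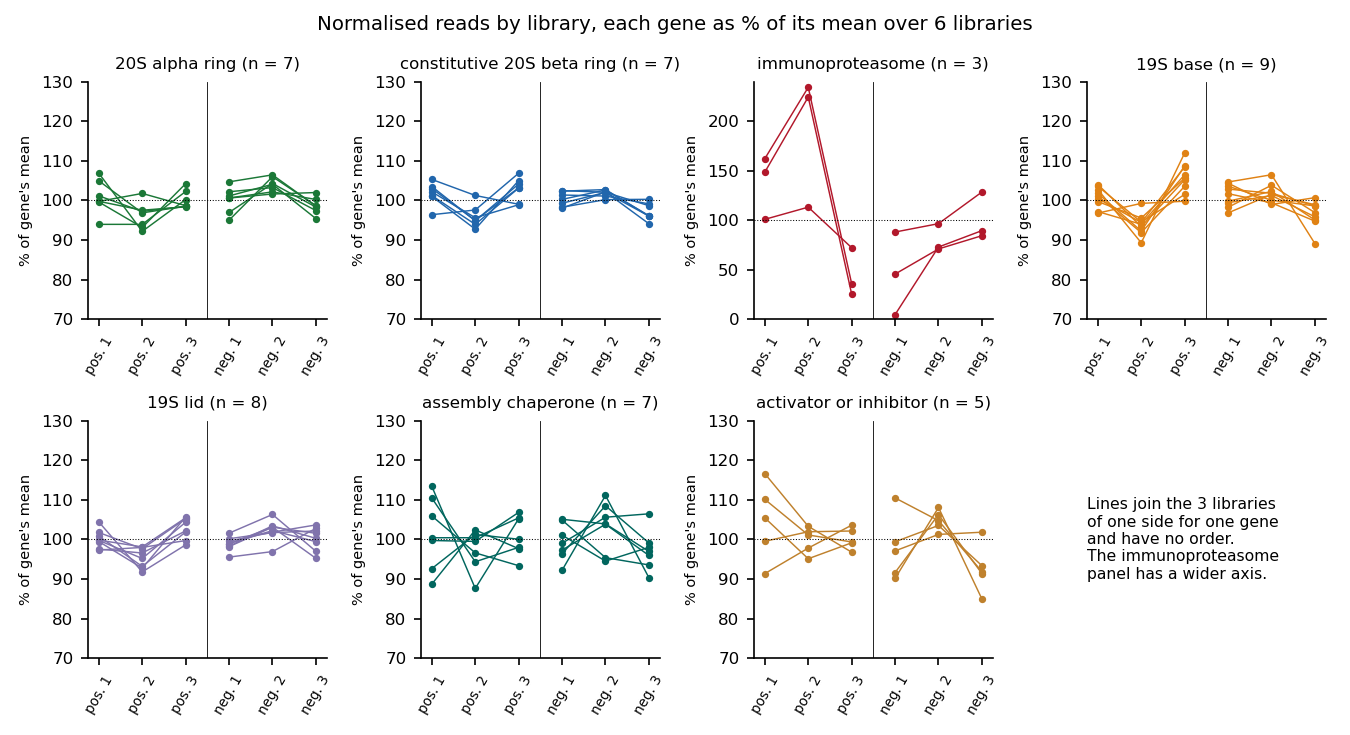
Normalised reads of each gene in each library as a percentage of that gene's mean over 6 libraries, by role, with positive libraries left of the vertical line and negative libraries right of it. The 31 core, base and lid genes stay between 89.1% and 112%, whereas the immunoproteasome genes, on a wider axis, run from 4.89% to 234%.

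Across libraries the core, base and lid genes moved by small amounts, often in the same libraries. Their summed normalised reads were 102873, 97320 and 105671 in the positive libraries and 102539, 104438 and 100230 in the negative ones, so the highest library was 1.09 times the lowest. Positive library 2 was the lowest of the 6 for 22 of the 31 genes, and positive library 3 was the highest for 17. The extremes therefore both lay on the positive side, and single genes had coefficients of variation of 1.77% to 7.68% with a median of 3.90%. Positive library 2 also had the highest meningeal sum (2024) and the lowest sum over 4 cortical markers (6947, against 7136 to 8247 in the others). The part of tissue make-up in the low subunit reads of that library was not tested. By role, positive library 2 was the lowest for 5 of 7 alpha, 5 of 7 beta, 7 of 9 base and 5 of 8 lid genes. The 20S sum ran from 40581 to 43425 and the 19S sum from 56739 to 62833 normalised reads, lowest in positive library 2 for both.

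The immunoproteasome genes were scarce, and Psmb8 and Psmb9 varied widely between libraries. The deposited means were 43.2 for Psmb8, 18.4 for Psmb9 and 199 for Psmb10. Per kilobase of exon, Psmb5 had 225 times the base mean of its inducible counterpart Psmb8, Psmb6 had 394 times that of Psmb9, and Psmb7 had 10.6 times that of Psmb10. These ratios depend on the merged exon lengths. Lengths of 899 bases for Psmb5 against 3381 for Psmb8, and 1872 for Psmb6 against 3660 for Psmb9, raise the first 2. Those of Psmb7 (3421) and Psmb10 (1705) lower the third. Before division by length, the base means were 2585 for Psmb5, 3707 for Psmb6 and 4234 for Psmb7. As a share of each pair per kilobase, Psmb8 made up 0.637%, 1.04% and 0.110% in the positive libraries and 0.206%, 0.314% and 0.373% in the negative ones. Psmb9 made up 0.401%, 0.617% and 0.0925% against 0.0121%, 0.181% and 0.230%. Psmb10 made up 8.59%, 10.2% and 6.20% against 7.57%, 8.25% and 10.9%. Transcripts of the constitutive active subunits were thus the large majority at each of the 3 positions in every library.

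**Figure D3:**
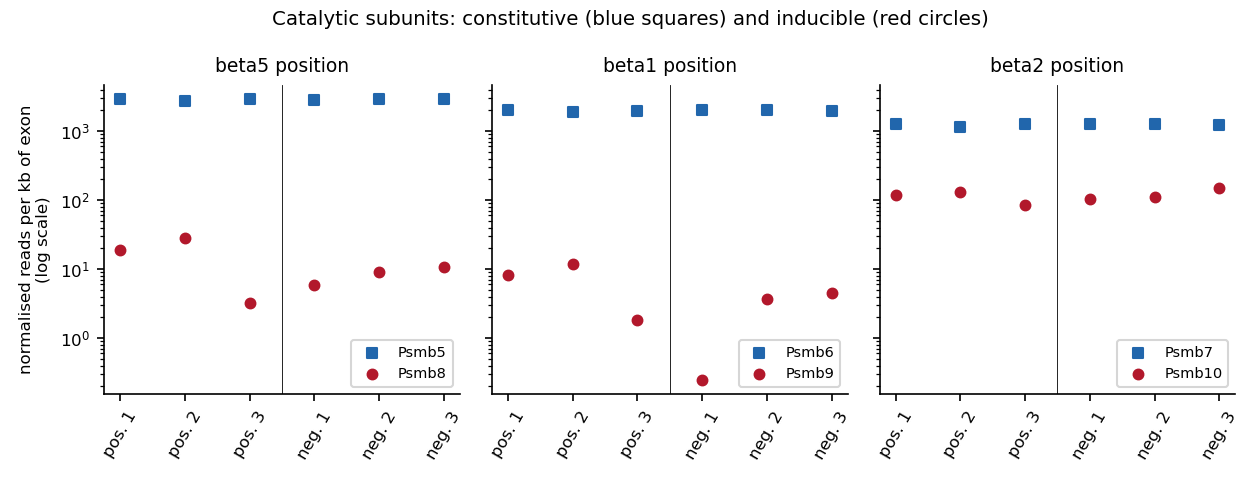
Normalised reads per kilobase of exon (log axis) in each of 6 libraries for the constitutive (blue squares) and inducible (red circles) active subunit genes at the beta5, beta1 and beta2 positions. The constitutive genes are level across libraries, and the Psmb9 point of negative library 1 is a single read. Psmb8 and Psmb9 lie far below Psmb5 and Psmb6 (225 and 394 times lower in base mean per kilobase of merged exon).

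Psmb8 and Psmb9 had the largest positive fold changes of the 48 genes, and neither passed the test. Psmb8, the inducible chymotrypsin-like subunit, had 71, 99 and 10 reads in the positive libraries and 22, 32 and 31 in the negative ones. Psmb9, the inducible caspase-like subunit, had 33, 44 and 6 reads against 1, 14 and 14. In both genes positive libraries 1 and 2 were the highest of the 6, while positive library 3 lay below negative libraries 2 and 3. Log2 fold changes in the authors' deposited table were 0.99 ± 0.63 for Psmb8 (95% interval -0.24 to 2.23) and 1.39 ± 0.89 for Psmb9 (-0.37 to 3.14), each with an unadjusted p of 0.12 and a DESeq2 adjusted p of 1.00. Psmb10, the inducible trypsin-like subunit, had 222, 230 and 130 reads in the positive libraries and 195, 200 and 217 in the negative ones. Its normalised reads were 201, 225 and 144 against 175, 192 and 255. In raw reads positive libraries 1 and 2 were again the highest, but in normalised reads negative library 3 was. Positive library 3 was the lowest of the 6 in both. Its sides overlapped, and its log2 fold change in the authors' deposited table was -0.12 ± 0.23.

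The fold changes of Psmb8 and Psmb9 rested on few libraries. The log2 ratio of side means from the recovered reads was 0.98 for Psmb8, and it was 0.38 without positive library 2 and 1.47 without positive library 3. For Psmb9 it was 1.37, and it was 0.83 without positive library 2 or negative library 1 and 1.89 without negative library 3. That of Psmb10 was -0.13 and changed sign without positive library 3 (0.037) or negative library 3 (0.048). For their abundance the first pair had wide errors: among the 200 genes of closest mean, 7 exceeded the standard error of Psmb8 and 11 that of Psmb9. The coefficient of variation over the 6 libraries was 74.0% for Psmb8 and 84.7% for Psmb9, where counting alone gives 23.1% for the latter, so the spread between libraries went beyond counting error.

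Psmb8 and Psmb9 lie on either side of the peptide transporter gene Tap1 on chromosome 17 in the MHC class II region, with Tap2 beyond Psmb8. In mm10 (GENCODE M21) Psmb9 spans chr17:34181987-34187764 on the minus strand, Tap1 chr17:34187553-34197225, Psmb8 chr17:34197721-34201454 and Tap2 chr17:34203527-34216321, all 3 on the plus strand. Psmb9 and Tap1 start head to head and share 212 exon bases, 5.79% of those of Psmb9, and the antisense gene Gm20496 overlaps 14.7% of the exon bases of Psmb8. Without a stated strand setting, reads of these pairs cannot be told apart there. Psmb10 lies apart at chr8:105935735-105938444 on the minus strand. Tap1 had 144, 176 and 44 reads in the positive libraries and 28, 85 and 59 in the negative ones. Tap2 had 39, 69 and 31 reads against 24, 37 and 30. The order of libraries in Tap1 resembled that of Psmb8 and Psmb9, with positive libraries 1 and 2 highest. The log2 fold change of Tap1 in the authors' deposited table was 1.00 ± 0.50 (unadjusted p = 0.044, DESeq2 adjusted p = 1.00), and that of Tap2, named for its position, was 0.58 ± 0.44.

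Further genes of MHC class I presentation were highest in the same libraries. None of the 12 genes listed for antigen presentation and the interferon response was called, 3 had an unadjusted p under 0.05, all positive, and 10 of 12 were positive with a median log2 fold change by the authors' deposited table of 0.32. H2-K1, an MHC class I heavy chain gene, had 569, 1428 and 146 reads in the positive libraries and 114, 233 and 143 in the negative ones. H2-D1, another heavy chain gene, had 340, 556 and 131 against 137, 198 and 134. B2m, the class I light chain gene, had 1299, 2067 and 288 against 311, 717 and 405. In all 3 genes positive libraries 1 and 2 were the highest of the 6. Once divided by the size factors, the reads of positive library 3 lay within the range of the negative side. Log2 fold changes in the authors' deposited table were 2.07 ± 0.86 for H2-K1 (DESeq2 adjusted p = 0.83), 1.08 ± 0.37 for H2-D1 (DESeq2 adjusted p = 0.37) and 1.28 ± 0.77 for B2m (DESeq2 adjusted p = 1.00).

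Markers of non-neural cells followed the same libraries. The summed normalised reads of Psmb8 and Psmb9 were 94.0, 140 and 17.7 in the positive libraries and 20.7, 44.2 and 53.0 in the negative ones. Those of 12 microglial markers were 4608, 4965 and 2145 against 1998, 3195 and 2972, and those of 10 endothelial markers were 5678, 6509 and 4753 against 4829, 4359 and 5459. All 12 microglial markers had reads in the table, with means from 19.7 (Siglech) to 746 (Csf1r), 10 of 12 were positive, and none was called. The complement gene C1qa had 646, 650 and 211 reads against 193, 358 and 243, while the purinergic receptor gene P2ry12, chosen after its values were seen because its fold change is negative, had 107, 103 and 55 against 92, 85 and 97. In the microglial sum, as in Psmb8 and Psmb9, positive libraries 1 and 2 were highest and positive library 3 and negative library 1 lowest. The meningeal sum had the same highest libraries, and its lowest was negative library 2. All 10 markers listed for meninges and fibroblasts were positive and 3 were called. The part of these cells in the reads of Psmb8 and Psmb9 was not tested.

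**Figure D4:**
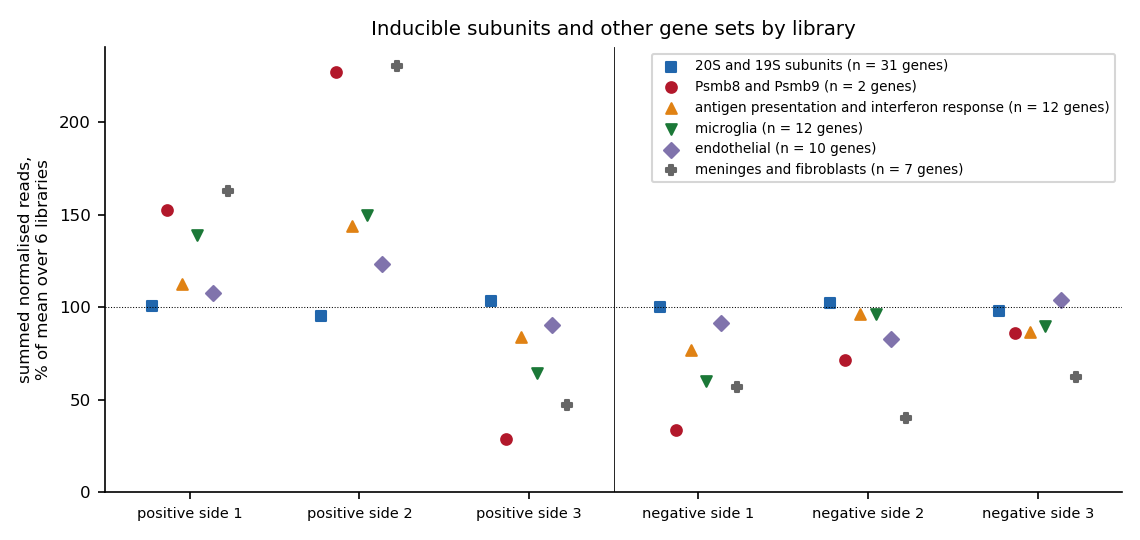
Summed normalised reads of gene sets in each library as a percentage of the set's mean over 6 libraries, with the number of genes in the legend. Psmb8 and Psmb9 reach 227% in positive library 2 and stand at 28.7% in positive library 3, the microglial, meningeal and antigen presentation sets are also highest in positive library 2, and the 31 core, base and lid genes stay between 95.2% and 103%.

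The 2 tissue-restricted genes were near or under the limit of detection. Psma8, the testis variant of the alpha4 subunit, had 2, 4 and 1 reads in the positive libraries and 5, 1 and 1 in the negative ones, 7 reads on each side. Psmb11, the thymic variant of the beta5 subunit, had 2 reads in negative library 1 and 0 in the other libraries, where a count of 0 allows up to 3 reads. No fold is given for Psmb11, since both sides were under that floor. The log2 fold change of Psma8 in the authors' deposited table was 0.027 ± 1.47, so its interval of -2.86 to 2.91 spans most differences of interest. Per kilobase of exon its constitutive counterpart Psma7 had 1309 times the base mean of Psma8.

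No assembly chaperone gene passed the test. Psmg1 to Psmg4 act on the alpha ring, and Psmd5, Psmd9 and Psmd10 on the base. Log2 fold changes in the authors' deposited table were positive for 4 of the 7, with a median of 0.028 and a range from -0.11 (Psmg3) to 0.060 (Psmg1). Psmg3 had 413, 477 and 455 normalised reads in the positive libraries and 461, 491 and 495 in the negative ones. Its sides overlapped because positive library 2 lay above negative library 1. The log2 fold change of Psmg3 in the authors' deposited table was -0.11 ± 0.12 (unadjusted p = 0.37, DESeq2 adjusted p = 1.00). Psmd10, which encodes gankyrin, varied most among the chaperones, with 408, 315 and 378 normalised reads against 332, 399 and 325. Its coefficient of variation was 11.3%, against 5.25% from counting alone. Reads of Psmd9 are uncertain, because the noncoding gene Gm26745 overlaps 25.5% of its exon bases on the opposite strand.

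Among the activators, the interferon-inducible pair Psme1 and Psme2, which encode the PA28 alpha and beta subunits, had positive fold changes that did not pass the test. Psme1 had 1990, 1828 and 1796 normalised reads in the positive libraries and 1657, 1921 and 1652 in the negative ones. Psme2 had 717, 635 and 595 against 554, 664 and 523. In both genes positive library 1 was the highest, negative library 3 the lowest, and negative library 2 lay inside the positive range. Log2 fold changes in the authors' deposited table were 0.10 ± 0.096 for Psme1 and 0.16 ± 0.14 for Psme2, with unadjusted p of 0.29 and 0.24 and DESeq2 adjusted p of 1.00 for each. Their library profile was not that of Psmb8 and Psmb9: the sum of Psme1 and Psme2 was 2391 in positive library 3 and 2463 in positive library 2. Psme2 is uncertain as a single gene, since Psme2b is 99.4% identical to it over 794 bases and had a mean of 287 and stood at 0.0085 (log2 fold change) by the authors' deposited table.

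The other regulators did not pass the test either. Psme3, which encodes the nuclear activator PA28 gamma, stood at a log2 fold change of 0.034 ± 0.072 by the authors' deposited table, with libraries at 93.4% to 104% of its mean. Psme4, which encodes the activator PA200, had 2147, 2299 and 2434 normalised reads in the positive libraries and 2596, 2461 and 2160 in the negative ones. Those sides overlapped, the coefficient of variation was 7.61%, and the log2 fold change in the authors' deposited table was -0.070 ± 0.097. Psmf1, which encodes the inhibitor and assembly factor PI31, had -0.0015 ± 0.086 in the authors' deposited table.

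Levels per kilobase of exon differed several-fold among subunits that are equimolar in the assembled particle. Over the 31 core, base and lid genes the base mean per kilobase ran from 351 (Psmd11) to 2875 (Psmb5), with a median of 1108. By role, the median base mean per kilobase was 1604 for the constitutive beta ring, 1452 for the base, 1033 for the alpha ring and 1002 for the lid. These ranges overlapped: alpha-ring genes ran from 606 (Psma3) to 2314 (Psma6), base genes from 489 (Psmc2) to 2347 (Psmd2) and lid genes up to 1347 (Psmd7). The chaperones had a median of 245 and the activators and inhibitor one of 348 base mean per kilobase, but Psmg4 (707) lay above the alpha-ring genes Psma2 (626) and Psma3, and Psme3 reached 1086. Immunoproteasome genes had 116.5 (Psmb10), 12.8 (Psmb8) and 5.02 (Psmb9), each below every core, base and lid gene. The lengths are those of all annotated exons merged, so a long, rarely used exon lowers a gene's value.

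**Figure D5:**
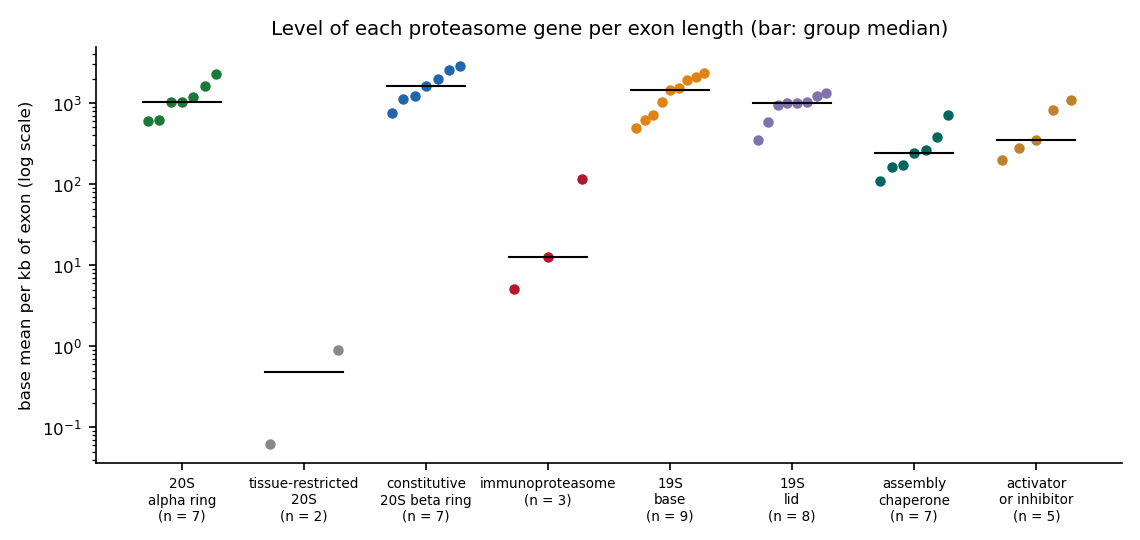
Base mean per kilobase of merged exon for each of the 48 genes on a log axis, by role, with a bar at the median of each role. The 31 core, base and lid genes lie between 351 and 2875, the chaperones and other regulators have lower medians (245 and 348) with some genes inside that range, and Psmb8, Psmb9, Psma8 and Psmb11 at 12.8 or below.

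Among genes that work with the proteasome, none passed the test. No gene of 4 lists (10 partners, 12 ubiquitin and ubiquitin activation genes, 10 substrate delivery genes and 12 genes of the Nrf1 and Nrf2 pathway) was called or had an unadjusted p under 0.05. Median log2 fold changes in the authors' deposited table were -0.017, -0.011, -0.027 and 0.034 for these lists, and 3 of 10, 5 of 12, 3 of 10 and 7 of 12 were positive. The smallest unadjusted p of the 4 lists was that of Ube2k, which encodes a ubiquitin-conjugating enzyme. Ube2k had 2603, 2641 and 2560 normalised reads in the positive libraries and 2906, 2862 and 2768 in the negative ones. Every positive library lay below every negative one, and the log2 fold change in the authors' deposited table was -0.13 ± 0.066 (unadjusted p = 0.051, DESeq2 adjusted p = 1.00). As with Psma3, the share of all genes separated in this way is not known. Among the partners, Pomp, which encodes the maturation factor of the core, had -0.075 ± 0.075, and the 19S subunit genes Sem1 and Adrm1 had -0.058 ± 0.099 and -0.018 ± 0.088 in the authors' deposited table. Nfe2l1, which encodes Nrf1 and is named for that role, stood at -0.025 ± 0.077 on the log2 scale of the authors' deposited table. The stress gene Hmox1 had the smallest p of its list, with 0.46 ± 0.28 in the authors' deposited table (unadjusted p = 0.11, DESeq2 adjusted p = 1.00), and the lowest fold change of that list was -0.33 ± 0.57 for Nqo1, another stress gene. Intervals of this list reached from -1.46 to 1.02 on the log2 scale, so sizeable differences lie within them.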

How the data were processed

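RNA-seq of 6 libraries of electroporated mouse cortex was compared by the authors in 1 deposited table, with 0 columns of values per sample used here. Cutadapt, featureCounts, DESeq2 and the build mm10 are named in the submitters' processing notes. Versions, aligner, annotation and strand setting: not given in the sources used here. Per the file headers, the authors' base mean is a signal, in which each library's count is divided by its size factor and averaged. Fold changes and standard errors were deposited on the log2 scale. The Wald statistic was deposited as a score, their quotient. Each deposited p-value, raw or adjusted, is from DESeq2 as the authors ran it.

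A gene was called at a deposited adjusted p under 0.05, and 95% intervals are from the normal distribution. The genes, their roles and the related lists were chosen with earlier results of these data known. Every proteasome gene could be named, and of each related list called genes and up to 4 others with the smallest p. Genes named for a role or position, or as the end of a range, fall outside that rule.

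Whole reads were recovered as sets of 6 whole numbers. The worth of a read in each library came from the lowest means, refined on 402 low genes. For means up to 75 a full search on the mean alone was used. For higher means the candidate sets were refitted with the model of the authors' DESeq2 run (ridge penalty 1e-06), and a set was accepted when it alone gave the deposited fold change within 1e-13. All 48 proteasome genes were resolved, with the closest other set missing by at least 3.1e-09, and so were 88 of 109 related genes. The printed reads carry counting error, and the spread between libraries comes on top of it. The recovery was tested on simulated data. No model was refitted across genes.

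Exon lengths, overlaps and coordinates are from GENCODE M21 on mm10, promoters from RefSeq (GRCm38.p6), and near copies (at least 95% identity over 200 bases) from blastn 2.17.0, which found 17 for 9 genes. Python 3.11.15, numpy 2.4.6, pandas 2.3.3, scipy 1.17.1 and matplotlib 3.10.9 were used.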

Additional observations from a re-analysis of the deposited data

How the results depend on the processing

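No proteasome gene and no gene of the related pathway lists was called when the adjustment ran only over genes past a mean of 10 or 50, at an adjusted p under 0.1, with a t distribution of 4 degrees of freedom or with fold changes centred on the median of -0.0089 (4 of 48 signs changed under the last). The median log2 fold change of the immunoproteasome genes moved from 0.99 to -0.12 with genes of a mean of at least 50 only, which leaves Psmb10 alone, and to 0.086 as a mean weighted by the inverse squared standard error. Leaving out 1 library at a time, an alternative chosen after seeing the data because it rests on the recovered reads, gave medians of 0.38 to 1.47 for the immunoproteasome genes, -0.046 to -0.0098 for the alpha ring, -0.031 to 0.038 for the beta ring, -0.030 to 0.043 for the base, -0.055 to 0.013 for the lid, -0.021 to 0.073 for the chaperones, 0.010 to 0.070 for the activators and inhibitor and -0.021 to 0.028 for all proteasome genes but Psmb11, which has too few reads. A tolerance 10 times wider gave the same reads for 12 of 12 genes with means up to 800. No paired analysis was possible because the recovered libraries carry no replicate number, and an edgeR fit was not run because counts of the whole table per labelled sample are not used here. Total depth is unknown, and the spread between libraries limits what can be seen of Psmb8 and Psmb9.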
